A study of Mus musculus with 9 samples.

Results

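Blood vessel genes, 10 of the 21498 gene symbols in the files, were followed in colon RNA of 9 male ICR mice, an outbred strain. They were taken by symbol, and no member's symbol was repeated. They are the growth factor Vegfa, its receptors Kdr and Flt1, the angiopoietin receptor Tek, the secreted or sprout-associated genes Angpt2, Esm1 and Apln, and the endothelial surface genes Pecam1, Cdh5 and Plvap. Mice entered the experiment at 5 weeks of age. The labels of the AOM/DSS mice place them at the end of week 18, and for Control mice, whose own labels give no week, that week is from the treatment protocol of the series. The 3 Control mice received neither carcinogen nor antibody, and their tissue is labelled normal colorectal mucosa. The 3 IgG mice and the 3 anti-A9 mice shared 1 intraperitoneal dose of 10 mg/kg azoxymethane (AOM), a colon carcinogen, and then 3 cycles of dextran sulfate sodium (DSS), an agent that injures the colon lining, in the drinking water, at 2% for 7 days and then at 1.5% for 5 days in each later cycle. During the DSS cycles the IgG mice received a negative control IgG antibody and the anti-A9 mice an antibody against S100a9, a calcium-binding protein of myeloid cells that promotes inflammation, each at 1.5 mg/kg every 2 days. Tissue of both AOM/DSS groups is labelled colorectal adenocarcinoma, without a statement of how much of a sample was tumour. The model is chemically induced, the Control mice had no antibody, and IgG vs Control therefore joins AOM/DSS, the IgG antibody and the kind of tissue. By label, anti-A9 vs IgG differs in the antibody. The study also reports fewer tumours with the anti-S100a9 antibody and describes the tissue of that group as colon mucosa. Antibody and tumour content of the samples therefore cannot be told apart in anti-A9 vs IgG.

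Blood vessels grow by sprouting. VEGF-A binds the receptor KDR (VEGFR2) on endothelial cells and drives migration and division, while FLT1 (VEGFR1) binds the same ligand with weaker signalling and acts largely as a trap. The cell at the front of a sprout, the tip cell, expresses Angpt2, Esm1 and Apln, whereas PECAM1 and VE-cadherin (CDH5) are junction proteins found along resting and growing vessels. ANGPT2 is a ligand of TEK (TIE2) that can oppose ANGPT1, the ligand that keeps vessels quiet.

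Promoters are printed for Esm1 and Apln, which rose in IgG mice, and for Flt1, which did not pass the test in any comparison, so that the sequence in front of genes with different results can be read side by side. RefSeq windows on GRCm38.p6, from 250 bases before to 50 bases after an annotated start, were at hand for 6 of the 10 members, in 7 windows with a pair for Vegfa. Angpt2, Pecam1, Cdh5 and Plvap were not in that table. Capitals mark matches, on either strand, to ACGTG or GCGTG, cores of the element bound by hypoxia-inducible factors, or to AGGAAG, a core of the ETS family of factors that are active in endothelium. The Esm1 window is chr13:113209409-113209708 on the plus strand, the Apln window chrX:48034804-48035103 on the minus strand and the Flt1 window chr5:147725962-147726261 on the minus strand.
Esm1: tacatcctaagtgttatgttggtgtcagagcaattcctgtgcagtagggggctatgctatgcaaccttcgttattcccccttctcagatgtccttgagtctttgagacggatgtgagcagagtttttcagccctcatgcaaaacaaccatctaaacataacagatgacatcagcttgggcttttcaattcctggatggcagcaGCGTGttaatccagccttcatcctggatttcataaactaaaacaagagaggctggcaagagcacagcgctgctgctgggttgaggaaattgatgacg
Apln: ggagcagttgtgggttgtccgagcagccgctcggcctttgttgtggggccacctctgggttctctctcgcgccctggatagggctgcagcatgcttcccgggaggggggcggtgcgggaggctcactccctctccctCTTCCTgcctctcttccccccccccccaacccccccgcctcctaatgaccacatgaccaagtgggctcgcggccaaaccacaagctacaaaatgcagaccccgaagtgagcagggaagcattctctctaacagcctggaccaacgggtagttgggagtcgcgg
Flt1: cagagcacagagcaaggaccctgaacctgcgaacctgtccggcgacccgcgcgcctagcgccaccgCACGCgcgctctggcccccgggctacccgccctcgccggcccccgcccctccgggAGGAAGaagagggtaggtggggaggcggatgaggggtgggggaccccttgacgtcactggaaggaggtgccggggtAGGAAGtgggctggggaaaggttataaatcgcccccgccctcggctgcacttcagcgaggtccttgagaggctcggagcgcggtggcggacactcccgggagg
The Esm1 window held GCGTG at position -47 from the annotated start, and the Apln window held AGGAAG on its other strand at -113. The Flt1 window held GCGTG on its other strand and AGGAAG more than once. Of the 7 member windows, 1 held ACGTG, 4 held GCGTG and 2 held AGGAAG. Over all 32851 windows of the table the shares were 19.6%, 32.4% and 35.4%. These matches only describe the letters in these windows.

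Values are FPKM, fragment numbers scaled to transcript length and to library size, which are given per length and can be compared between genes. Their sums ran from 308377 to 408811 FPKM per mouse. Without a known read depth no counting interval could be given, and precision is shown by the spread over 3 mice. S100a9 itself was listed at 0.37 to 0.859 FPKM in Control mice, 63.1 to 267 FPKM in IgG mice and 5.54 to 11.6 FPKM in anti-A9 mice. Endothelial RNA was present in every mouse, as the summed level of 21 endothelial identity genes was 146 to 183 FPKM in Control, 191 to 313 FPKM in IgG and 139 to 202 FPKM in anti-A9 mice, with no gene of the list at 0 throughout a group. The higher IgG sums include Ecscr, at 2.9 to 4.7 FPKM in Control and 19.1 to 29.9 FPKM in IgG mice. They also include Sox18, at 12.3 to 14.6 and 26.2 to 41.4 FPKM. Pecam1 and Cdh5 overlapped between these groups, so the sums do not show more endothelium in IgG mice. The 3 IgG mice differed in smooth muscle RNA. The summed level of 5 smooth muscle markers was 355 FPKM in IgG replicate 1, 727 FPKM in replicate 2 and 2426 FPKM in replicate 3, against 1250 to 1989 FPKM in Control and 1519 to 2787 FPKM in anti-A9 mice. In bulk tissue, fewer cells of a type and less RNA per cell cannot be told apart.

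**Figure D1:**
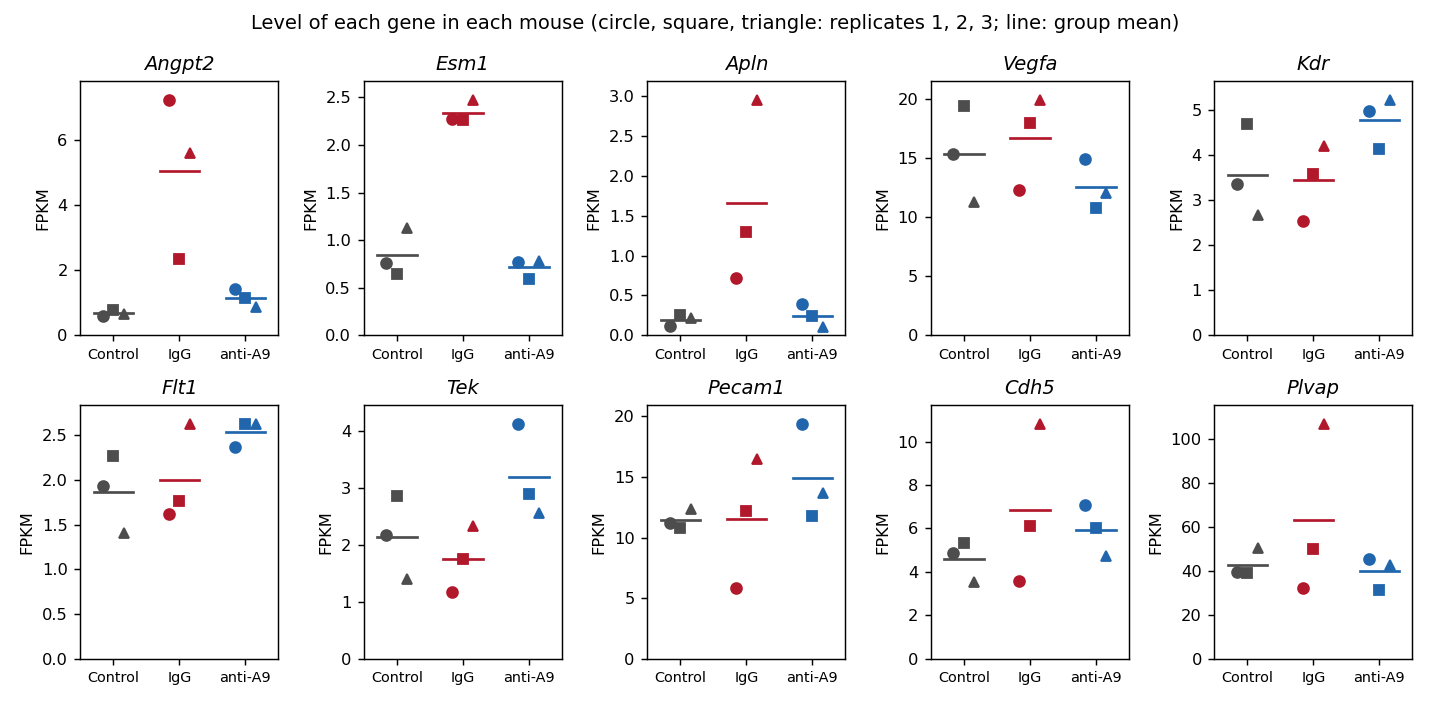
Level of each of the 10 genes in FPKM (linear axes that start at 0) in 3 Control, 3 IgG and 3 anti-A9 mice, with circle, square and triangle for replicates 1, 2 and 3 and a line at each group mean. For Angpt2, Esm1 and Apln all 3 IgG mice lie above the 6 other mice, while for Vegfa, Kdr, Flt1, Pecam1, Cdh5 and Plvap the IgG mice overlap both other groups.

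The first comparison set the AOM/DSS mice given IgG against the untreated mice. In IgG vs Control, 3 of the 10 members were called higher at a Benjamini-Hochberg adjusted p under 0.05 in limma over 15278 genes, and none was called lower. They were Angpt2, Esm1 and Apln, the secreted genes of sprouting endothelium. Over all genes tested, 8.18% were called higher and 3.01% lower. The same 3 members passed the thresholds of the study's methods, an unadjusted p under 0.05 with more than 2-fold change, which 8.43% of genes passed in the higher direction. These thresholds were applied here to the limma values, whereas the study used DESeq. The same 3 had IgG mice all above the Control mice, which held for 20.7% of genes. The median difference over the 10 members was 0.25 on the log2 scale, and over all genes tested it was 0.09.

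Angpt2 (chr8:18690263-18741562, GRCm38, minus strand, 10 exonic blocks) encodes angiopoietin-2, which loosens vessels and opens them to sprouting. Its level was 0.603, 0.772 and 0.641 FPKM in Control mice, 7.24, 2.34 and 5.62 FPKM in IgG mice, and 1.42, 1.16 and 0.871 FPKM in anti-A9 mice. The lowest IgG mouse was above every Control and anti-A9 mouse, and IgG replicate 1 was the highest. The mean rose from 0.672 ± 0.0887 to 5.066 ± 2.498 FPKM (SD, n = 3). The difference of IgG minus Control was 2.60 (SE 0.40) in log2(FPKM + 0.1), a 6.08-fold increase with a 95% interval of 3.26 to 11.3, and its limma adjusted p was 0.0058. Under leaving out single mice and the other settings, the adjusted p stayed between 0.00116 and 0.0267.

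Esm1 (chr13:113209659-113218098, plus strand, 3 exonic blocks) encodes endocan, a proteoglycan released by tip cells. It was at 0.757, 0.647 and 1.12 FPKM in Control, 2.28, 2.26 and 2.48 FPKM in IgG, and 0.765, 0.595 and 0.780 FPKM in anti-A9 mice. The IgG mice lay close together, with a coefficient of variation of 5.1%, although they differed widely in the genes of vessel identity. IgG exceeded Control by 1.40 (SE 0.25) on the log2 scale, which is 2.64-fold (95% interval 1.78 to 3.92) with a limma adjusted p of 0.0113. Without Control replicate 2 the adjusted p was 0.0513 and the call was lost.

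Apln (chrX:48025146-48034853, minus strand, 3 exonic blocks) encodes apelin, a peptide that endothelial sprouts release and that acts on the receptor APLNR. Its level was 0.118, 0.247 and 0.217 FPKM in Control, 0.719, 1.30 and 2.96 FPKM in IgG, and 0.392, 0.239 and 0.103 FPKM in anti-A9 mice. It had the lowest mean of the members in every group, in IgG mice with values that overlapped those of Tek. The Apln values of IgG mice spread over 4.11-fold, with IgG replicate 3 highest. The difference of IgG minus Control was 2.40 (SE 0.51), a 5.27-fold increase (95% interval 2.35 to 11.8) with a limma adjusted p of 0.0218. The pseudocount of 0.1 is close to the Control level, so the fitted fold understates the ratio of means, which was 8.55. Without Control replicate 1 or 2 the adjusted p was 0.0757 or 0.0602, and with only the 6 mice of these groups in the fit it was 0.0539.

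The ligand Vegfa and its receptors did not pass the test. Vegfa (chr17:46016993-46032369) was at 15.4, 19.5 and 11.3 FPKM in Control and at 12.3, 18.0 and 20.0 FPKM in IgG mice, a log2 difference of 0.13 with a 95% interval of -0.44 to 0.69. Kdr (chr5:75932827-75978458) was at 3.35, 4.70 and 2.66 FPKM in Control and at 2.55, 3.58 and 4.21 FPKM in IgG mice, a log2 difference of -0.04 with an interval of -0.64 to 0.56. Flt1 (chr5:147561604-147726011) was at 1.93, 2.27 and 1.41 FPKM in Control and at 1.62, 1.76 and 2.63 FPKM in IgG mice, a log2 difference of 0.09 with an interval of -0.49 to 0.67. The groups overlapped for each of the 3. Tek (chr4:94739289-94874976), the receptor of ANGPT2, was at 2.19, 2.86 and 1.40 FPKM in Control and at 1.17, 1.75 and 2.33 FPKM in IgG mice, and the log2 difference of -0.28 had an interval of -1.05 to 0.50.

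The surface genes of endothelium varied more between IgG mice than between Control mice. Pecam1 (chr11:106654217-106750628) was at 11.2, 10.8 and 12.4 FPKM in Control and at 5.85, 12.2 and 16.5 FPKM in IgG mice. Cdh5 (chr8:104101625-104144511) was at 4.88, 5.34 and 3.54 FPKM in Control and at 3.57, 6.12 and 10.8 FPKM in IgG mice. Plvap (chr8:71497765-71511752), the protein of the diaphragms that cover endothelial pores and the most abundant member, was at 39.4, 38.9 and 50.3 FPKM in Control and at 32.0, 49.8 and 106.9 FPKM in IgG mice. For all 3 genes IgG replicate 1 was the lowest and IgG replicate 3 the highest of the IgG mice, the order also seen in the smooth muscle sum, and the part of tissue makeup in this spread was not tested. The highest IgG mouse exceeded the lowest 2.81-fold for Pecam1, 3.04-fold for Cdh5 and 3.34-fold for Plvap, and the same ratios in Control mice were 1.15, 1.51 and 1.29. The log2 differences were -0.11 for Pecam1, 0.44 for Cdh5 and 0.38 for Plvap, with limma adjusted p of 0.854, 0.454 and 0.536.

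The second question was how these genes differed between AOM/DSS mice given anti-A9 and those given IgG. In anti-A9 vs IgG, 3 of the 10 members were called lower, again Angpt2, Esm1 and Apln, and none higher. Over all genes, 14.4% were called lower and 6.72% higher, and 8.38% passed the rule of an unadjusted p under 0.05 with more than 2-fold decrease, as did these 3 members. Both comparisons use the same IgG mice, so a gene high in those mice gives differences of opposite sign in each. The median over the 10 members was -0.24 on the log2 scale, against -0.06 over all genes.

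Angpt2 fell by 1.93 (SE 0.40) on the log2 scale, 3.81-fold, with a limma adjusted p of 0.0166. Esm1 fell by 1.59 (SE 0.25), 3.01-fold, with an adjusted p of 0.00807, and Apln fell by 2.23 (SE 0.51), 4.70-fold, with an adjusted p of 0.0219. All 3 anti-A9 mice were below all 3 IgG mice for each of these genes, a separation that 28.5% of genes showed. Esm1 kept its call in every alternative. The adjusted p of Angpt2 was 0.0595 without anti-A9 replicate 2 and 0.0558 without replicate 3, and that of Apln was 0.0526 without IgG replicate 3, 0.0697 without anti-A9 replicate 2 and 0.0687 without anti-A9 replicate 3.

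Tek differed in the other direction. It was at 4.14, 2.91 and 2.57 FPKM in anti-A9 mice, all above the highest IgG mouse at 2.33 FPKM, and 18.5% of genes separated this way. The log2 difference was 0.86 (SE 0.34, 95% interval 0.08 to 1.63), with an unadjusted p of 0.0335 and an adjusted p of 0.0997 in limma, so it did not pass. Kdr was at 4.99, 4.14 and 5.23 FPKM and Flt1 at 2.37, 2.63 and 2.62 FPKM in anti-A9 mice, with differences from IgG of 0.49 and 0.35 on the log2 scale (adjusted p = 0.201 and 0.325). Vegfa was at 14.9, 10.8 and 12.1 FPKM, and its difference was -0.40 (adjusted p = 0.262). In anti-A9 mice Pecam1 was at 19.4, 11.8 and 13.6 FPKM, Cdh5 at 7.08, 6.01 and 4.72 FPKM, and Plvap at 45.2, 31.3 and 42.5 FPKM. Their differences from IgG were 0.47, -0.08 and -0.50 on the log2 scale, none past the test.

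The third comparison set anti-A9 against Control mice. None of the 10 members passed in limma, at an adjusted p under 0.05 or at an unadjusted p under 0.05. Among all genes tested 0.00655% were called higher and 0.00655% lower, so that few genes of any kind passed after adjustment. At an unadjusted p under 0.05 in limma, 2439 of the 15278 genes passed. Angpt2 and Flt1 were higher in all 3 anti-A9 mice than in all 3 Control mice, which was the case for 17.3% of genes. Angpt2 was 1.60-fold higher with an interval of 0.857 to 2.98 and an adjusted p of 0.402. The corresponding interval was 0.592 to 1.30 for Esm1 and 0.50 to 2.51 for Apln, so a remaining difference of these sizes could not be seen with 3 mice a group.

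**Figure D2:**
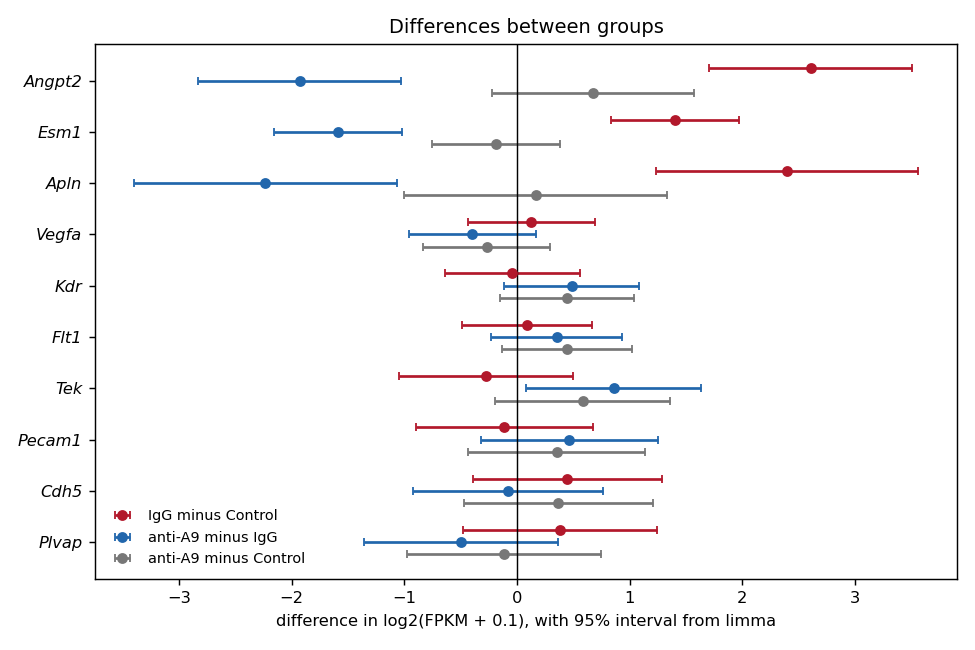
Difference between group means in log2(FPKM + 0.1) for each gene, with the 95% interval from limma, for IgG minus Control, anti-A9 minus IgG and anti-A9 minus Control (3 mice a group). Angpt2, Esm1 and Apln lie at 2.60, 1.40 and 2.40 in the first comparison and at -1.93, -1.59 and -2.23 in the second, and every interval of anti-A9 minus Control includes 0.

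Each of the other members was also expressed relative to the mean log2 level of Pecam1 and Cdh5 in the same mouse. Such a ratio does not move with the scaling of a whole library. How far Pecam1 and Cdh5 follow the endothelial content of a sample was not tested. Angpt2 was at -3.41, -3.14 and -3.19 in Control, 0.65, -1.84 and -1.24 in IgG, and -2.96, -2.76 and -3.07 in anti-A9 mice. IgG exceeded Control by 2.44 for Angpt2, 1.24 for Esm1 and 2.23 for Apln, and anti-A9 was below IgG by values of -2.12, -1.78 and -2.42. The groups did not overlap in any of these 6 comparisons. For Esm1 the gap to Control was narrow, with IgG replicate 3 at -2.39 and Control replicate 3 at -2.46. Of all genes expressed this way, 6.49% lay above Control in all IgG mice and 13.1% lay below IgG in all anti-A9 mice. Each of the 6 comparisons had an exact two-sided permutation p of 0.1, the smallest that 3 mice against 3 can give, and 0.24 after adjustment over 24 comparisons. For Angpt2 and Esm1 the highest relative level was in IgG replicate 1, where Pecam1 was lowest, and for Apln it was in IgG replicate 3.

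Relative to Pecam1 and Cdh5, Vegfa was 0.34, 0.35 and 0.58 in anti-A9 mice and 1.05, 1.35 and 0.76 in Control mice, without overlap, as for 30% of all genes. Plvap was lower in anti-A9 than in IgG mice by a difference of -0.69, and Tek was higher by 0.67, also without overlap, with the same permutation p of 0.1. The shares of all genes were 13.1% for the lower and 6.09% for the higher direction. The relative levels of Kdr and Flt1 overlapped between all groups. Relative Angpt2 was 0.32 higher in anti-A9 than in Control mice, again without overlap, as for 2.95% of all genes.

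**Figure D3:**
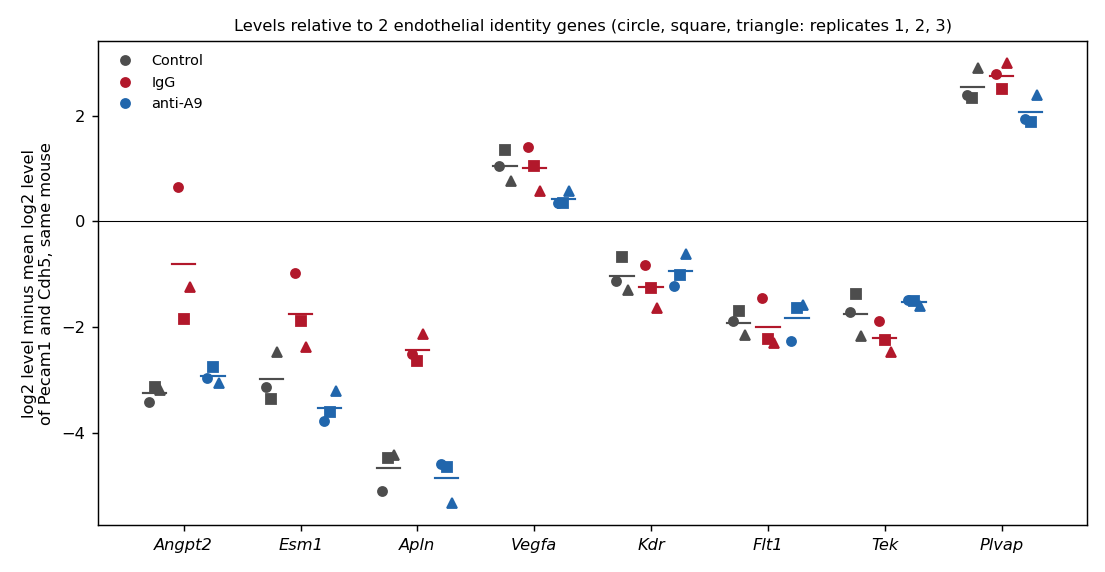
Level of 8 genes in each mouse as log2(FPKM + 0.1) minus the mean of Pecam1 and Cdh5 in the same mouse, with circle, square and triangle for replicates 1, 2 and 3 and a short line at each group mean. Angpt2, Esm1 and Apln of IgG mice lie above both other groups, by 2.44, 1.24 and 2.23 over Control, while Kdr and Flt1 overlap.

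The order of the members by mean FPKM shows the same change. In Control mice Plvap came first at 42.9 FPKM, Vegfa and Pecam1 followed at 15.4 and 11.5 FPKM with overlapping mice, and Cdh5, Kdr, Tek and Flt1 formed a chain of overlapping neighbours from 4.59 to 1.87 FPKM. Esm1 and Angpt2 overlapped at 0.842 and 0.672 FPKM, and Apln was last at 0.194 FPKM. In IgG mice Angpt2 stood at place 5 with 5.07 FPKM, its mice overlapping those of Cdh5 and Kdr, and the mean of Esm1 stood above those of Flt1 and Tek, with overlapping mice. In anti-A9 mice Angpt2, Esm1 and Apln were again the last 3, at 1.15, 0.713 and 0.244 FPKM, with no overlap between neighbours.

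Wider lists of vessel genes were read with the same fit. Of 11 tip cell genes, 6 were called higher in IgG than in Control mice, a share of 54.5% where 8.18% of all genes were called higher, with a median log2 difference of 0.95 against 0.09 over all genes. Beside the members these were Sox17, a transcription factor of arterial endothelium, at 2.51, Nid2, a basement membrane nidogen, at 1.44, and Pdgfb, the growth factor that recruits pericytes, at 0.95. The tip cell list includes Angpt2, Esm1 and Apln and was chosen with earlier results of these data known. Its shares in both comparisons therefore repeat the member result in part. Sox17 was at 1.22, 1.50 and 0.923 FPKM in Control, 14.0, 4.87 and 5.60 FPKM in IgG, and 2.48, 1.38 and 1.01 FPKM in anti-A9 mice. Kcne3, a list gene named after its values were seen, was lower in IgG vs Control at -1.07. Its limma adjusted p was 0.159, so it was not called. The summed level of the 11 genes overlapped between groups. It was 84.4 to 94.8 FPKM in Control, 75.1 to 113 FPKM in IgG and 82.3 to 104 FPKM in anti-A9 mice. Kcne3 was the largest part of this sum in Control mice, at 43.9, 42.0 and 40.0 FPKM. In IgG mice Kcne3 was at 10.1, 47.7 and 16.3 FPKM. The sum therefore says little about the low genes of the list. In anti-A9 vs IgG, 6 of the 11 were called lower, where 14.4% of all genes were, namely the 3 members with Sox17 at -2.19, Pdgfb at -0.78 and Dll4, the Notch ligand of tip cells, at -0.71. The first count was 3 without Control replicate 1, 2 without Control replicate 2 and 3 with only the 6 mice compared in the fit, and the second was 3 without IgG replicate 3 and 1 without anti-A9 replicate 2 or 3. Without IgG replicate 1, the mouse with the least smooth muscle RNA, the counts were 5 and 4. SOX17 is also made outside endothelium, and the files do not show in which cells any of these genes was expressed.

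Of 21 endothelial identity genes, among them Pecam1, Cdh5 and Plvap, 2 were called higher in IgG and the same 2 lower in anti-A9 vs IgG, a share of 9.52% each. This is near the 8.18% of all genes called higher and below the 14.4% called lower, so the counts are no result about identity genes as a group. The 2 genes were Ecscr, a surface protein of endothelial cells, and Sox18, a transcription factor of vessels and lymphatics. Ecscr was at 2.88, 3.54 and 4.71 FPKM in Control, 29.9, 19.1 and 22.8 FPKM in IgG, and 6.10, 3.98 and 4.13 FPKM in anti-A9 mice. No IgG mouse came near the other groups. It differed by 2.66 in IgG vs Control and by -2.31 in anti-A9 vs IgG (adjusted p = 0.000884 and 0.00282 in limma), and it kept both calls under all 18 alternatives. Sox18 differed by 1.39 and -1.51. Without Control replicate 1 or 2, and in anti-A9 vs IgG without anti-A9 replicate 2, the count was 1.

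Among 10 VEGF family genes, Pgf, a ligand of FLT1 but not of KDR, was the one called higher in IgG mice, a share of 10% that is near the 8.18% of all genes. Its level was 0.216, 0.544 and 0.622 FPKM in Control, 16.8, 2.60 and 5.52 FPKM in IgG, and 0.557, 0.522 and 0.749 FPKM in anti-A9 mice. The differences were 3.59 and -3.18 on the log2 scale, with limma adjusted p of 0.0092 and 0.0139. In anti-A9 vs IgG, Nrp2 and Nrp1, co-receptors of VEGF and semaphorins, and Vegfc, the ligand of the lymphatic receptor FLT4, were called higher at 1.18, 1.01 and 0.77, which is 3 of 10 genes where 6.72% of all genes were called. Without IgG replicate 1 Nrp1 lost its call. Nrp2 was at 16.0, 15.3 and 13.5 FPKM in anti-A9 mice, above the 5.59 to 8.22 FPKM of IgG mice. Vegfb, Figf (VEGF-D) and Flt4 were not called in any comparison.

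In the angiopoietin group Angpt4, a further TEK ligand, was called with Angpt2, so that 2 of 6 genes rose in IgG and 2 of 6 fell in anti-A9 vs IgG, where 8.18% and 14.4% of all genes did. Angpt4 was at 0.422, 0.184 and 0.588 FPKM in Control, 1.46, 2.90 and 5.72 FPKM in IgG, and 0.594, 0.501 and 0.507 FPKM in anti-A9 mice. Angpt1, Tie1 and Ptprb, the phosphatase that acts on TEK, were not called. Of the apelin genes, Aplnr differed by 1.10 in IgG vs Control with an adjusted p of 0.151, and Apela was below the filter on low values.

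Counts in the other lists were small and are set against the 8.18% of all genes called higher in IgG vs Control and, in anti-A9 vs IgG, the 6.72% called higher and the 14.4% called lower. Among 6 adhesion genes Selp, the P-selectin that catches leukocytes and platelets, rose by 1.97 in IgG mice, and Sele, a gene under 1 FPKM in each group that was named after its values were seen, was also called but kept the call in 7 of 17 alternatives. Vcam1 was called higher in anti-A9 than in IgG mice by 1.30. Of 7 pericyte genes Pdgfrb alone was called in IgG vs Control, at 0.87, and it kept the call in 7 of 18 alternatives. Of 7 Notch genes Jag2 and Hey1 rose by 1.10 and 0.92 in IgG, and Dll4 was called lower in anti-A9 vs IgG. Jag2 kept its call in 8 and Hey1 in 5 of 18 alternatives, and without IgG replicate 1 none of the 7 Notch genes was called in either comparison. Of 13 hypoxia genes Egln3, Bnip3 and Pfkfb3 rose by 1.43, 1.21 and 1.17 in IgG and none was called in anti-A9 vs IgG, where the 3 stood at -0.35, -0.60 and -0.73 (adjusted p of 0.301, 0.076 and 0.103). Pfkfb3 lost its call without IgG replicate 1, and Slc2a1 was then called, higher in IgG vs Control and lower in anti-A9 vs IgG. Vegfa, a textbook target of the hypoxia-inducible factors, was not called. In 154 of 665 refits of called list genes, single mice left out or other settings, the call was lost.

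Of 7 tested inhibitors of vessel growth, Thbs1, Col18a1 and Sparc rose by 3.28, 2.25 and 1.82 in IgG and were called lower in anti-A9 vs IgG at -1.97, -1.88 and -1.66, and Timp3 was called higher there by 0.89. Sparc kept the calls in 8 and 11 of 18 alternatives, and Timp3, whose call was lost without IgG replicate 1, in 8. COL18A1 is the precursor of endostatin, and Sparc and Thbs1 are also made by fibroblasts. In the same IgG mice 3 of 5 fibroblast markers, Col1a1, Col3a1 and Pdgfra, were called higher, where 8.18% of all genes were. Pdgfra lost its call without IgG replicate 1. The other markers, Dcn at 0.31 and Lum at -0.26, were not called. The summed fibroblast level was 517 to 1635 FPKM in IgG, against 346 to 429 FPKM in Control and 489 to 638 FPKM in anti-A9 mice. The part of fibroblast content in these results was not tested. Of 7 lymphatic genes Prox1, the transcription factor that defines lymphatic endothelium and is also known in intestinal tumour cells, rose by 4.61 in IgG and was called lower by a difference of -3.36 in anti-A9 vs IgG. Prox1 reached 66.1 FPKM in IgG replicate 1, where Lyve1, another lymphatic gene, looked up after the values were seen, was at its lowest, 3.29 FPKM. Mmrn1 and Reln were called higher in anti-A9 than in IgG mice by 1.56 and 1.29, but without IgG replicate 1 neither was called, and Reln kept the call in 8 of 18 alternatives. No gene of any of these lists was called in anti-A9 vs Control.

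**Figure D4:**
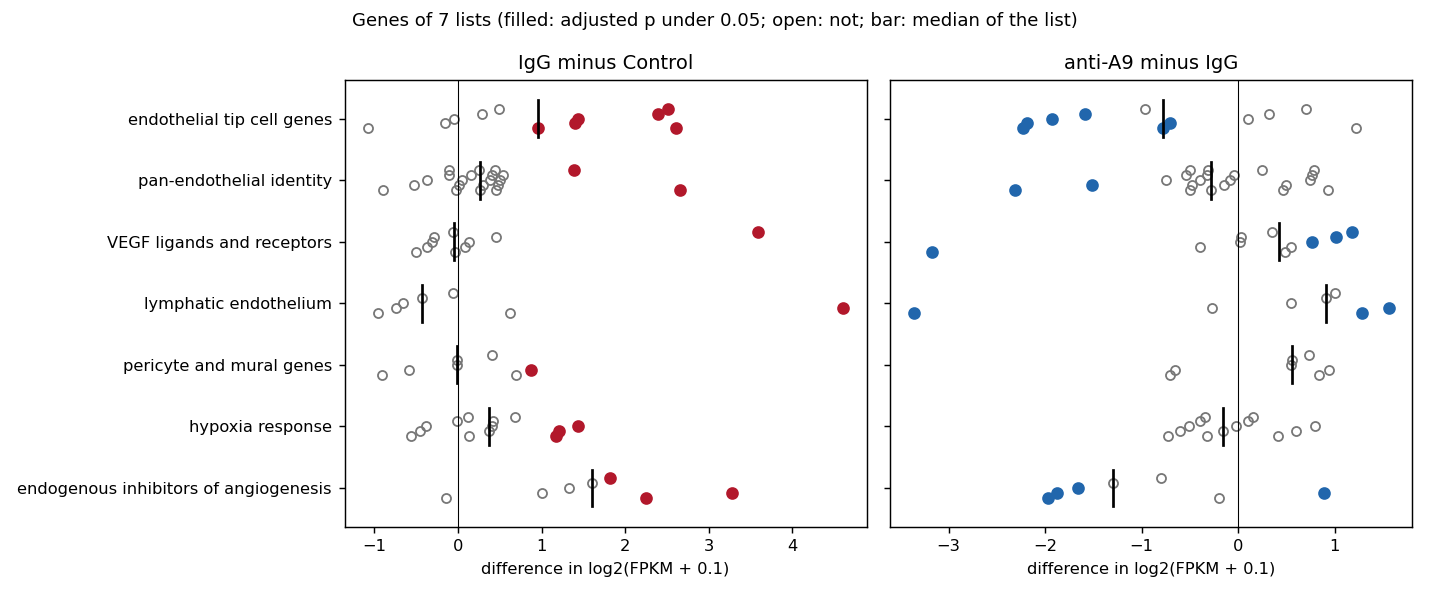
Difference in log2(FPKM + 0.1) of each tested gene of 7 lists, for IgG minus Control (left) and anti-A9 minus IgG (right), with filled points for an adjusted p under 0.05 in limma, open points for the others and a bar at the list's median. In the left panel 6 of 11 tip cell genes but 2 of 21 identity genes are filled, and the list medians are 0.95 and 0.27. The tip cell list includes the members Angpt2, Esm1 and Apln, and the identity list includes Pecam1, Cdh5 and Plvap.

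The profiles over the 9 mice were also compared directly, by the root mean square difference between gene-centred log2 levels, where a smaller value means a closer profile. All points share their libraries, and the values are a description. Among 12542 genes the closest to Cdh5 were Ace at 0.153, Adgrg3 at 0.182, Sema3g at 0.183, Cd200 at 0.194 and Hspg2 at 0.199. Flt1, Vegfa, Pecam1, Plvap, Kdr and Tek were at 0.337 to 0.444 from Cdh5, and Esm1, Apln and Angpt2 at 0.799, 1.02 and 1.13. The genes closest to Angpt2 were Ajuba at 0.187, Mmp14 at 0.218, Pcdhb9 at 0.283, Ctxn1 at 0.302 and Limch1 at 0.305. Apln and Esm1 were at 0.69 and 0.698 from Angpt2, and the other members at 1.12 to 1.44. Between 129 and 918 genes were closer to Cdh5 than the first 6 of these members, and 380 and 394 genes were closer to Angpt2 than Apln and Esm1, so these distances are not particular to the members. Ajuba, an adaptor protein of cell junctions, was at 1.29 to 1.51 FPKM in Control and at 15.4, 4.95 and 7.96 FPKM in IgG mice, so that IgG replicate 1 was highest, as for Angpt2.

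Some members share their locus with a gene on the other strand, and whether reads were assigned by strand is not given in the sources used here. Angpt2 overlaps Mcph1, Esm1 overlaps Gzmk, and Plvap overlaps Gtpbp3. Cdh5 overlaps an antisense transcript that was not analysed here. No exon of a member overlapped an exon of these genes in GENCODE M21. Mcph1 was at 0.921 to 1.56 FPKM and Gtpbp3 at 4.02 to 6.48 FPKM over the 9 mice, and Gzmk, a granzyme of lymphocytes, was at 0 to 0.259 FPKM and was lowest in IgG mice, where Esm1 was highest. None of the 3 was called in IgG vs Control or in anti-A9 vs IgG. From the wider lists only Pgf, Angpt4, Sox18, Sox17, Prox1, Selp, Nrp2 and Thbs1 were looked up for overlaps. Ecscr and the remaining list genes were not checked. An exon of a transcript on the other strand overlaps 1 of 4 exonic blocks of Sox17 and 1 of 6 of Prox1. The same holds for 2 of 17 blocks of Selp and 2 of 22 of Thbs1. Without a known strand assignment, reads in these blocks could come from either transcript.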

How the data were processed

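RNA-seq of colon tissue was analyzed in 9 mice, 3 per group, each labelled a separate biological replicate, so p-values measure the spread between mice. The authors deposited FPKM in 9 single-mouse files of 21544 rows with a symbol each. No header names this unit, which was inferred from decimals that do not step in whole reads, and depth is unknown. The submitters' processing notes name TopHat, Cufflinks, HTSeq, DESeq and GRCm38, without versions used here, and the study's methods state that a changed gene needed over 2-fold change at an unadjusted p under 0.05. Strand assignment is not given in the sources used here.

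Repeated symbols were summed (21498 symbols). log2(FPKM + 0.1) was fitted for 15278 genes that reached 0.1 FPKM in 3 samples or more, in limma 3.58.1 (R 4.3.3) on all 9 samples, with an intensity trend and 8.87 degrees of freedom, and p-values were Benjamini-Hochberg adjusted over all genes tested. Fold changes are on this scale and understate the change of low genes. Ratios to Pecam1 and Cdh5 were tested with exact two-sided permutation tests over mice. The fit was tested on simulated data first. The 10 members are all named. From the lists, genes with an adjusted p under 0.05 in IgG vs Control or anti-A9 vs IgG and a mean of at least 1 FPKM in a group were named, at most 4 a list beside the members, and all VEGF, angiopoietin and apelin ligands and receptors could be named. The members and lists were chosen with earlier results of these data known. Gene positions are from GENCODE M21 (GRCm38). Alternatives were a replicate block, the 2 groups alone, filters, pseudocounts of 1 and 0.01, median-of-ratios and quantile scaling, no trend, and leaving out each mouse. The list counts without single mice were added after seeing the data.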

Additional observations from a re-analysis of the deposited data

How the results depend on the processing

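Of 537 refits of the members' differences, 509 kept direction and side of the threshold, 19 reversed a difference that was not called, and 9 lost a call of Angpt2, Esm1 or Apln. No called difference reversed, in members or in the wider lists, where 154 of 665 refits lost the call. Apln was not tested with a filter of 1 FPKM. Leaving out single mice gave 1 to 3 members called in IgG vs Control (1 without Control replicate 2), 1 to 3 in anti-A9 vs IgG (1 without anti-A9 replicate 2 or 3) and 0 to 0 in anti-A9 vs Control. Tip cell counts ranged from 2 to 6 and from 1 to 6, and were 3 in IgG vs Control with only the 2 groups compared. Identity gene counts ranged from 1 to 2 in both comparisons. Fewer mice and degrees of freedom enter these fits, and other causes were not tested. Same-numbered mice correlated at -0.187 to 0.249 and were not treated as pairs. With a replicate block 3, 3 and 0 members were called, and 5 tip cell genes in each of the first and second comparisons.

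Reversals were of small differences, and their cause was not tested. With quantile normalization Vegfa and Flt1 in IgG vs Control were at -0.0275 and -0.0247 and Plvap in anti-A9 vs Control at 0.0025, and with median-of-ratios scaling Flt1 was at -0.0125. These scalings moved the median of all genes in IgG vs Control from 0.0936 to -0.0302 and -0.00924. Leaving out single mice, IgG vs Control ran from -0.0745 to 0.33 for Vegfa, -0.23 to 0.17 for Kdr, -0.11 to 0.23 for Flt1, -0.43 to 0.31 for Pecam1 and -0.0913 to 0.78 for Plvap. Cdh5 in anti-A9 vs IgG ran from -0.47 to 0.32. In anti-A9 vs Control Esm1 ran from -0.34 to 0.016, Apln from -0.14 to 0.50 and Plvap from -0.22 to 0.044. Relative to Pecam1 and Cdh5, IgG vs Control ran from -0.24 to 0.18 for Vegfa and -0.35 to 0.077 for Flt1, and anti-A9 vs Control from -0.081 to 0.26 for Kdr, -0.0400 to 0.30 for Flt1 and -0.41 to 0.042 for Apln. Relative Flt1 in anti-A9 vs Control was -0.00902 with a pseudocount of 1, and relative Plvap in IgG vs Control was -0.063 with Cdh5 as the only reference.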

Other observations

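Markers of other cells were read in the same fit. Of 4 tested adipocyte genes, 3 (Adipoq, Cfd and Plin1) were called lower in IgG than in Control mice, where 3.01% of all genes were, but none was without IgG replicate 1. The summed list was at 65.0 to 197 FPKM in Control, 43.4 to 59.7 FPKM in IgG and 28.8 to 35.0 FPKM in anti-A9 mice. Adipoq was at 4.26, 16.9 and 2.99 FPKM in Control mice, 1.23 FPKM in IgG replicate 2 and 0 in the other IgG mice. Of 4 tested platelet genes, Gp1bb was called higher in IgG, and Gp1bb and Itga2b were called lower in anti-A9 vs IgG. Without IgG replicate 1 none of these platelet calls was kept. Gp1bb was at 10.995, 8.35 and 14.6 FPKM in IgG mice and at 1.74, 2.17 and 5.9998 FPKM in Control mice. No gene of the leukocyte or colonic epithelium lists was called. Myh11, a smooth muscle myosin, was called higher in anti-A9 than in IgG mice by 2.01 on the log2 scale, a call lost without IgG replicate 1, the mouse with the least muscle RNA. The part of muscle content in the vessel genes was not tested.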
